A study of Homo sapiens with 14 samples.

Results

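Peaks of Polycomb proteins and their histone marks on human chromosome 18 (hg19) are described here, split at 40 Mb into a first stretch of 40 Mb and the rest of the chromosome, which runs a further 38.01 Mb to the largest peak end in any list. All peaks of 14 deposited lists on that chromosome were taken, 7824 of 227479 peaks in all, of which 7002 started in the first 40 Mb and 822 in the rest. The chromosome and the position of the split were chosen on measured peak density, so the density difference itself is a description and supports nothing. No test was run on any of the values below. Each antibody has 1 library per cell line, so no value has a replicate check, and the intervals given cover counting error only.

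The study used chromatin immunoprecipitation followed by sequencing (ChIP-seq) in DU145 cells, a line long established from a human prostate cancer. EED knockdown cells, with a stable knockdown and puromycin selection, were set against control cells that carried a scramble construct and had the same selection. All knockdown titles bear 1 construct label, and what that construct does cannot be told apart from what loss of EED does. The level of EED itself was not analysed here. Neither the promoter of the construct nor whether a line is 1 clone is stated in the sources used here. In all 7 antibodies were used in both lines, against EED, H3K27me3, RING1A, RING1B, BMI1 and ubiquitylated histone H2A (uH2A), the last with a rabbit and with a mouse antibody. Read depth is unknown, and the lists hold 1372 to 11327 peaks in knockdown cells and 5155 to 56011 in control cells. The lists fall into a first set (EED and both uH2A antibodies) and a second set (H3K27me3, RING1A, RING1B and BMI1), which differ in how chromosomes are written and in the culture text of the labels. Both sets hold knockdown and control libraries.

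Polycomb repressive complex PRC2 places the repressive mark H3K27me3, and EED is the core subunit that also binds this mark. PRC1 contains RING1A or RING1B as ubiquitin ligase for histone H2A, and BMI1 is a partner that raises the activity of the ligase. H3K27me3 can recruit forms of PRC1, so the proteins and both marks often lie together on silenced developmental genes. A copy-number step is a place where a chromosome changes from one number of copies to another. Read depth there changes by 1 common factor in every library, up to the edge.

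Peaks of PRC2 were denser in the first 40 Mb in both cell lines. EED had 64 peaks in the first 40 Mb and 1 in the rest in knockdown cells, against 541 and 46 in control cells. That is 1.60 and 0.0263 peaks per Mb in knockdown cells, and 13.5 and 1.21 peaks per Mb in control cells. In control cells the ratio of the first 40 Mb over the rest was 11.2 (95% exact interval 8.26 to 15.5). The knockdown ratio of 60.8 rests on the single peak in the rest, and its interval runs over 10.5 to 2439. H3K27me3 had 20 and 9 peaks in knockdown cells, against 456 and 342 in control cells. Its control densities were 11.4 peaks per Mb in the first 40 Mb and 8.997 in the rest, a ratio of 1.27 (1.10 to 1.46), the lowest of the 14 libraries. H3K27me3 therefore had nearly as many peaks per Mb beyond 40 Mb as before it, while its partner EED did not. The H3K27me3 ratio also changed side with the counting: merging peaks within 1000 bp gave 0.878, and a split at 35 Mb gave 0.922.

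All 3 PRC1 subunits had more peaks per Mb in the first 40 Mb in both lines. RING1A had 27 peaks in the first 40 Mb and 8 in the rest in knockdown cells, against 2242 and 81 in control cells. The density ratio was 3.21 (1.42 to 8.17) in knockdown cells and 26.3 (21.1 to 33.3) in control cells. RING1B, the other ligase, had 10 and 3 peaks in knockdown cells, against 85 and 17 in control cells, with ratios of 3.17 (0.816 to 17.9) and 4.75 (2.80 to 8.53). Its control ratio was 14.3 (5.84 to 45.2) with peaks merged within 1000 bp, and 70.2 (12.2 to 2811) without the 0 to 1 and 44 to 45 Mb bins, which leave 1 control peak in the rest. BMI1 had 94 and 18 peaks in knockdown cells, against 1109 and 46 in control cells, with ratios of 4.96 (2.98 to 8.73) and 22.9 (17.1 to 31.5). The order of RING1A and BMI1 in control cells depends on the counting, since without those 2 bins the ratio was 31.9 for RING1A and 42.1 for BMI1. With all peaks counted, RING1A and BMI1 thus had their steeper difference in control cells, and RING1B held few peaks in either line. Without those 2 bins RING1A had 19 and 0 knockdown peaks, which gives no ratio. The BMI1 ratio without them was 20.2 (7.59 to 75.7) in knockdown cells and 42.1 (28.1 to 66.0) in control cells.

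The uH2A mark was also denser in the first 40 Mb, with the steeper difference in control cells for the rabbit antibody and in knockdown cells for the mouse antibody. The rabbit antibody gave 219 peaks in the first 40 Mb and 93 in the rest in knockdown cells, against 617 and 123 in control cells, with ratios of 2.24 (1.75 to 2.88) and 4.77 (3.92 to 5.83). The mouse antibody gave 379 and 0 peaks in knockdown cells, against 1139 and 35 in control cells. With a floor of 3 counts put in the rest, its knockdown density ratio was 120, and the exact interval for 0 peaks there began at 97.2. The control ratio was 30.9 (22.1 to 44.6). The 2 antibodies to the same mark therefore differed in how many peaks they gave beyond 40 Mb. Within the first set the control ratios ran over 4.77 to 30.9, and within the second set over 1.27 to 26.3, so both sets held low and high ratios.

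Set against the other autosomes, the 2 stretches stood apart to different degrees. Density in the rest was below that of the other autosomes in 14 of 14 libraries, by a factor of 0.0790 to 0.747 in control cells. The first 40 Mb lay above the other autosomes in 10 of 14 libraries, 4 of 7 in knockdown cells and 6 of 7 in control cells. EED had 3.52 times the density of the other autosomes there in knockdown cells and 3.04 times in control cells. For H3K27me3 the factors were 0.381 and 0.947, and for RING1A 0.504 in knockdown cells and 2.95 in control cells. RING1B stood at 0.513 in knockdown cells and 1.28 in control cells, and BMI1 at 1.17 and 4.07. The rabbit uH2A antibody gave 1.41 in knockdown cells and 1.65 in control cells, and the mouse antibody 3.92 and 2.44. In 3 of the 4 libraries below the autosomes the antibody was one of the second set in knockdown cells, and the fourth was H3K27me3 in control cells.

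**Figure D1:**
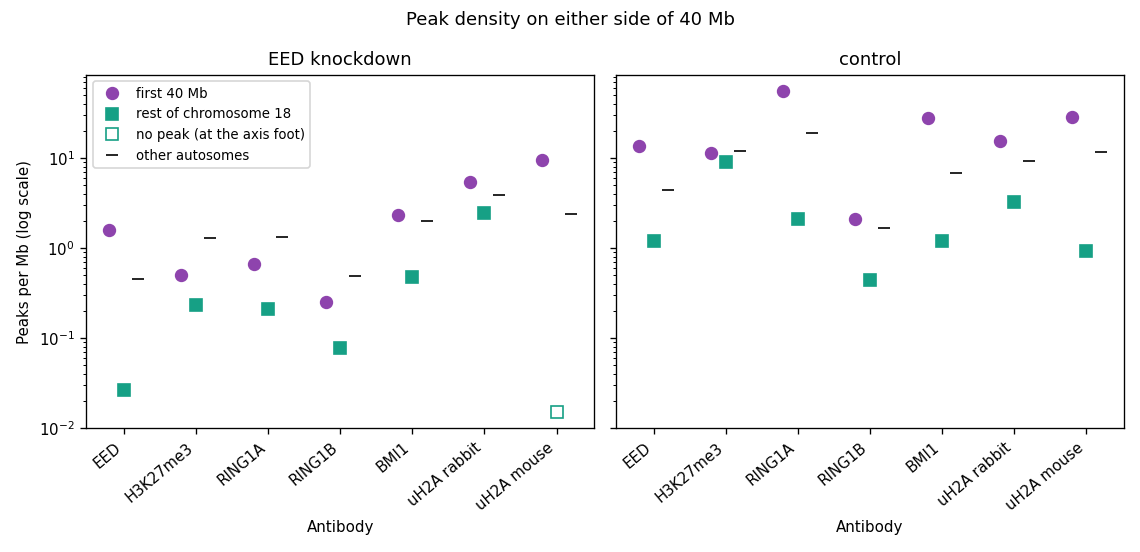
Peaks per Mb (log scale) in EED knockdown (left) and control libraries (right) for 7 antibodies, in the first 40 Mb (circles), the rest of chromosome 18 (squares) and the other autosomes (dashes). Each point is 1 library with no error drawn. The squares lie below the dashes in all 14 libraries, and the circles above them in 10.

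Other autosomes gave comparable steps for some antibodies when split at the same 40 Mb. The 19 other autosomes long enough for it had a median control ratio of 0.827 for EED, 0.973 for RING1A, 0.982 for BMI1 and 0.783 for the mouse uH2A antibody. Chromosome 18 ranked 1 among the 20 in these 4 control libraries, and also in knockdown cells for EED and for the mouse uH2A antibody. The next highest control ratios were 10.2 for EED, 10.8 for RING1A and 17.2 for mouse uH2A, all on chromosome 4, and 11.3 for BMI1 on chromosome 5. With the rabbit uH2A antibody chromosome 4 reached 32.3 in control cells, above chromosome 18. H3K27me3 on chromosome 18 ranked 10 in either line. RING1A and RING1B in knockdown cells ranked 8 and 5, with chromosome 15 highest at 61.96 for RING1A and 24.1 for RING1B. As the split was set on chromosome 18, its rank is a description of a selected case.

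**Figure D2:**
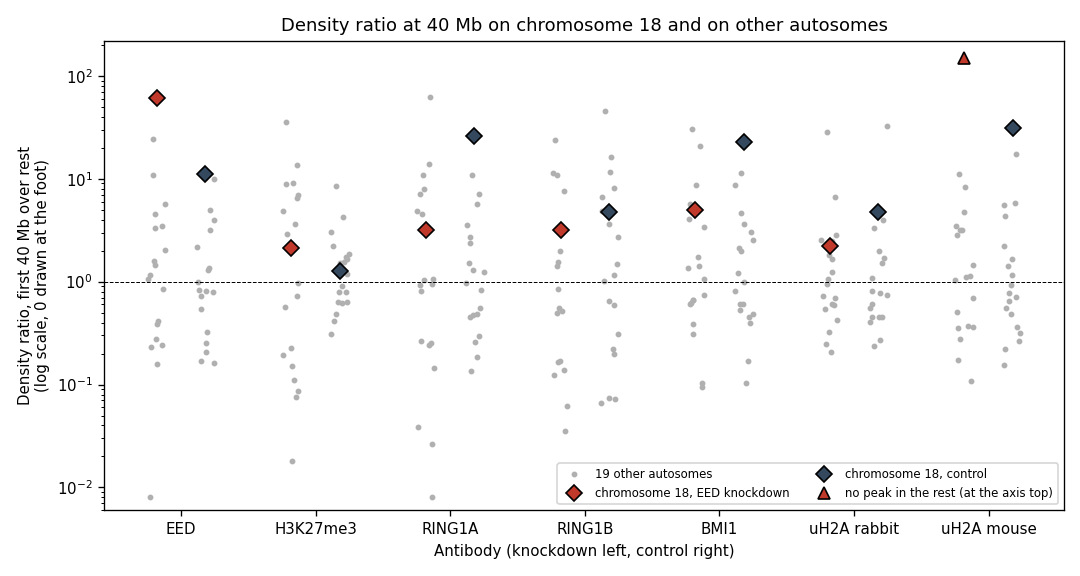
Density ratio of the first 40 Mb over the remainder (log scale) for chromosome 18 (diamonds, knockdown left and control right) and for 19 other autosomes (grey points). Each point is 1 library and 1 chromosome. Chromosome 18 is highest for EED and mouse uH2A in both lines and for RING1A and BMI1 in control cells only. The triangle marks mouse uH2A in knockdown cells, which had no peak in the rest.

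Along the chromosome the dense stretch ended before 40 Mb, and density did not change at 40 Mb itself. Between 37 and 43 Mb each library held 0 to 3 peaks. The last EED peak before 40 Mb lay at 36555776 to 36555975 in knockdown cells and at 36524301 to 36524825 in control cells, and the next one began 40.4 Mb further on in knockdown cells and 4.66 Mb further on in control cells. BMI1 ended at 36524601 to 36524725 in knockdown cells and at 36524301 to 36524875 in control cells, followed by 8.02 Mb without a peak in either line. The mouse uH2A antibody ended at 36524726 to 36524875 in knockdown cells and at 36524801 to 36524875 in control cells. Single control peaks of H3K27me3 and RING1A lay closer to the split, at 39524301 to 39524450 with a height of 37 and at 39355326 to 39355500 with a height of 54. The nearest peak after the split was one of control EED at 41186851 to 41186975 with a height of 34. The last 3 Mb before 40 Mb thus belonged, by its density, with the sparse side.

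Density was uneven within the first 40 Mb. The 4 bins between 33 and 37 Mb held 38.8% of the EED control peaks of the stretch, 38.2% of those of H3K27me3, 24.98% of RING1A, 56.5% of RING1B and 38.1% of BMI1. They held 40.7% of the rabbit and 29.9% of the mouse uH2A control peaks. In the densest bin, from 34 to 35 Mb, RING1A had 251 control peaks, BMI1 189, mouse uH2A 162, rabbit uH2A 123 and EED 90. H3K27me3 was densest 1 bin later, with 112 control peaks from 35 to 36 Mb, where EED had 53. A second block lay from 12 to 15 Mb, with 452 control peaks of RING1A, 204 of mouse uH2A and 98 of EED. From 25 to 28 Mb the same antibodies had 27, 9 and 7 control peaks, and H3K27me3 had none. A stretch of 3.16 Mb from 15357426 to 18515650, in the region of the centromere, held no peak in any list. The dense side was therefore made of blocks separated by sparse bins rather than a level plateau.

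**Figure D3:**
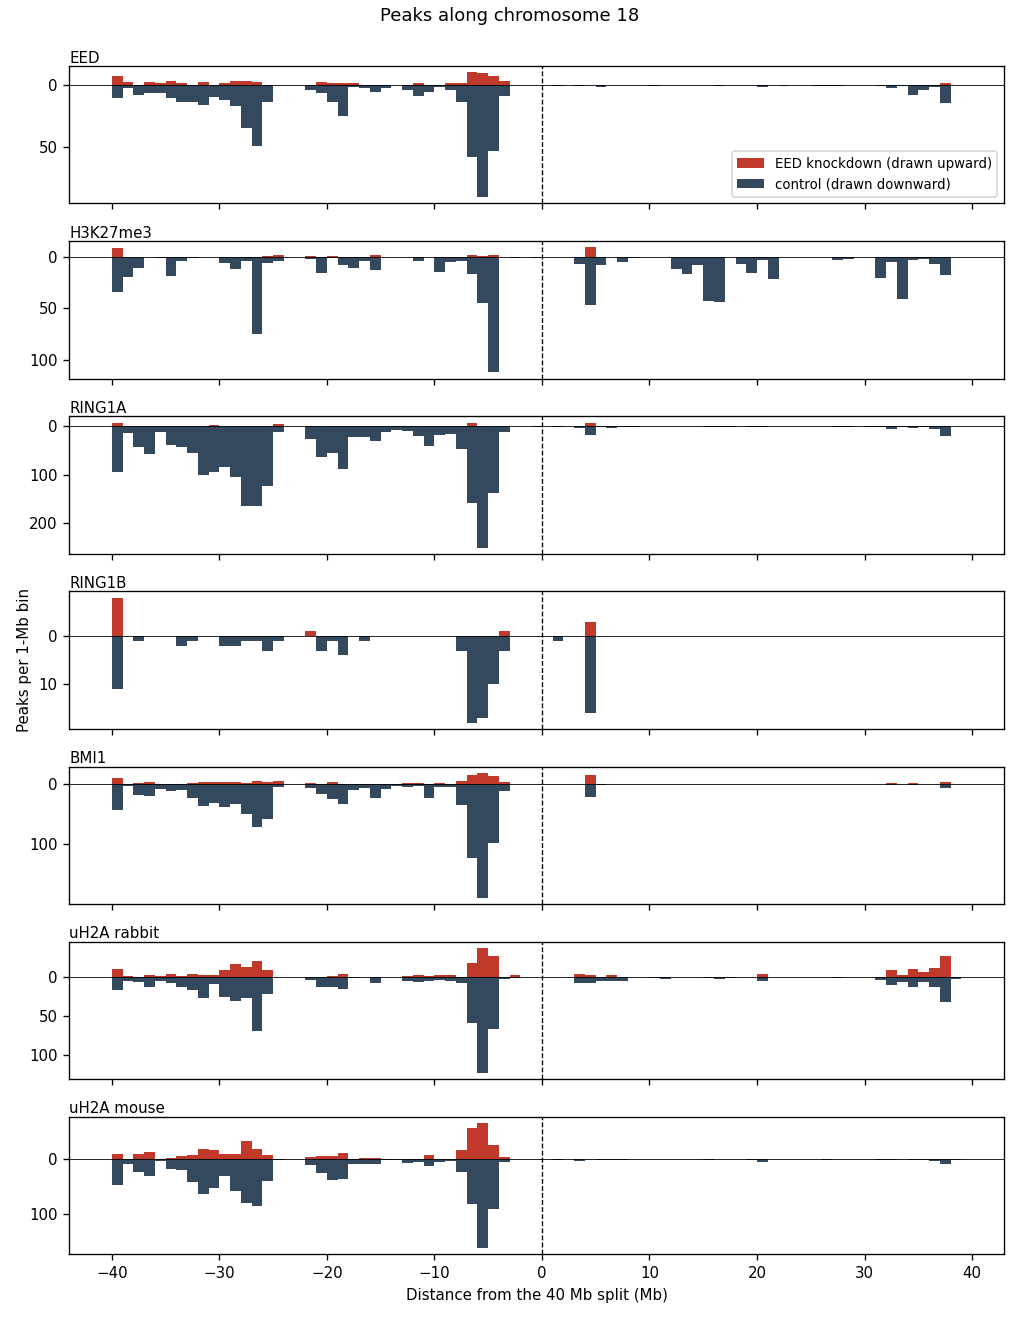
Peaks per 1-Mb bin along chromosome 18 for 7 antibodies, with EED knockdown drawn upward and control downward, against the distance from the 40 Mb split in Mb (dashed line). Each bar is 1 bin of 1 library. The longest control bars stand 5 to 6 Mb before the split for 5 of 7 antibodies, and the bins on either side of the line are nearly empty.

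The antibodies shared this profile over the first 40 Mb, with H3K27me3 less alike. Over 36 bins outside the empty stretch, Spearman's rho between the control profiles of the 6 antibodies other than H3K27me3 had a median of 0.892 over 15 pairs (lowest 0.642, highest 0.974). The 6 pairs that include H3K27me3 gave 0.400 to 0.492. In the rest, over 38 bins, the medians were 0.558 without and 0.235 with H3K27me3. Knockdown and control profiles of the same antibody gave 0.934 for mouse uH2A, 0.835 for rabbit uH2A, 0.756 for BMI1 and 0.642 for EED in the first 40 Mb, and 0.260 for RING1A. These bins are the same reference stretches in all libraries, and neighbouring bins are not independent. Copy number was not measured. Its part in the shared profile, and that of mappable length and base composition, was not tested.

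Peaks of the rest lay in a few places. The largest in control cells was H3K27me3 between 52 and 62 Mb, with 172 of its 342 peaks, where EED had 3, RING1A 10, BMI1 2 and RING1B 0 control peaks. In knockdown cells H3K27me3 had 0 peaks in those bins, and rabbit uH2A had 7 of the 7 knockdown peaks found there. Beyond 72 Mb lay the only rest peak of EED in knockdown cells and 33 of 46 in control cells. Rabbit uH2A had 70 of its 93 rest peaks beyond 72 Mb in knockdown cells and 81 of 123 in control cells, the densest bin being 77 to 78 Mb with 28 and 32 peaks. A cluster from 44544476 to 44557025 made up most of the rest in knockdown cells for the second set. It held all 9 knockdown peaks of H3K27me3, 8 of 8 of RING1A, 3 of 3 of RING1B and 14 of 18 of BMI1, and none of the first set. Its 44 to 45 Mb bin also held 16 of the 17 control peaks of RING1B in the rest.

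At the other end a cluster from 106526 to 112400 carried 37 knockdown peaks of 6 antibodies and the tallest peaks of the chromosome. There BMI1 reached a height of 9660 in knockdown cells and 1766 in control cells, H3K27me3 7884 and 1756, and RING1B 2034 and 3411. RING1A had a new knockdown peak of height 6216 at 107101 to 109025. Heights are as the authors' caller wrote them and are not normalised between libraries, so they are given side by side only. The 0 to 1 Mb bin held 8 of the 10 RING1B and 8 of the 20 H3K27me3 knockdown peaks of the first 40 Mb. Without this bin and the 44 to 45 Mb bin, H3K27me3 had 12 and 0 knockdown peaks, RING1A 19 and 0, RING1B 2 and 0, and BMI1 85 and 4. Nearly all knockdown peaks of the second set in the rest thus lay in the 44 to 45 Mb bin. Without the 2 bins the BMI1 ratio was 20.2 (7.59 to 75.7) in knockdown cells, and the median ratio over control libraries was 29.6 in place of 11.2. This median moved as RING1B went from 4.75 to 70.2, with 1 control peak left in the rest. The EED control ratio went from 11.2 to 10.9, and that of mouse uH2A, which became the median, from 30.9 to 29.6.

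Median peak heights were close on either side in control cells and less so in knockdown cells. Heights in control cells had a median of 33 in the first 40 Mb and 31.4 in the rest for EED, 41.8 and 38 for H3K27me3, and 59.3 and 54 for RING1A. For BMI1 they were 65.8 and 64.9, for rabbit uH2A 35.3 and 37.2, and for mouse uH2A 37.3 and 34. The ratio of medians over 7 control libraries ran over 0.774 to 1.10 with a median of 1.05, the lowest being RING1B, which became 1.16 without the 2 bins that stand apart. In knockdown cells the ratios had a median of 0.938 over 6 libraries with peaks on either side, and ran over 0.705 to 9.74. EED had 0.705 against 1 peak in the rest, and RING1A 0.714 (range from the limits of the 2 medians 0.393 to 1.33). RING1B had a median height of 263 in the first 40 Mb and 27 in the rest in knockdown cells, with 8 of its 10 peaks in the 0 to 1 Mb bin. The lowest control heights were also close, 25 on either side for EED, 41 and 42 for RING1A and 48 on either side for BMI1. Of the peaks on chromosome 18 none had a height of 0, whereas 1.78% to 5.69% of the peaks on other autosomes did in the second set.

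The difference in density between the sides was smaller among tall peaks for RING1A, BMI1 and rabbit uH2A. Control peaks of RING1A at least 2 times the median height of its library numbered 6 in the first 40 Mb and 6 in the rest, a density ratio of 0.9503 (0.254 to 3.55). For BMI1 they numbered 7 and 6 (1.11, 0.319 to 3.99), and for rabbit uH2A 25 and 15 (1.58, 0.803 to 3.23). Tall RING1A peaks were 0.268% of its control peaks in the first 40 Mb, 7.41% in the rest and 2.97% on the other autosomes. H3K27me3 went the other way, with 60 and 17 tall control peaks, a ratio of 3.35 (1.93 to 6.13), above its 1.27 over all peaks. EED had 3 and 0 tall control peaks and mouse uH2A 9 and 0. All 6 tall RING1A peaks of the rest and all 6 of BMI1 lay in the 44 to 45 Mb bin, and without the 0 to 1 Mb bin RING1A had 4 and BMI1 2 in the first 40 Mb. At least 1.5 times the median, RING1A still had 84 and 10 control peaks, a ratio of 7.98 (4.13 to 17.3).

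**Figure D4:**
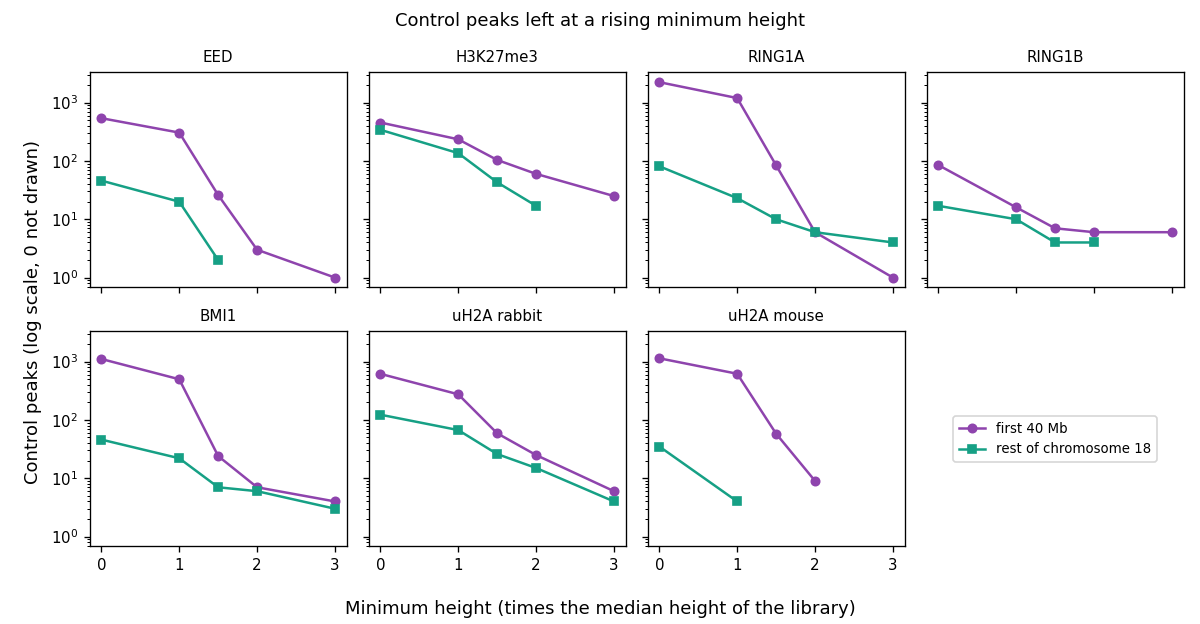
Number of control peaks (log scale) left in the first 40 Mb (circles) and the rest of chromosome 18 (squares) at a minimum height of 0, 1, 1.5, 2 and 3 times the median of the library. Each line is 1 library, and counts of 0 are not drawn. For RING1A and BMI1 the lines meet at 2 times the median, with 6 and 6 and with 7 and 6 peaks, while H3K27me3 keeps 60 and 17.

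Peak lengths are given in steps of 25 bp. Their medians differed less in control cells than in knockdown cells for RING1A, EED and rabbit uH2A. In knockdown cells RING1A had a median of 100 bp in the first 40 Mb and 300 bp in the rest, EED 100 and 175 bp, RING1B 287.5 and 150 bp, and rabbit uH2A 175 and 250 bp. H3K27me3 had 137.5 and 150 bp there, and BMI1 125 and 150 bp. The knockdown medians of the rest came from 8 peaks for RING1A, 1 for EED and 3 for RING1B. The range of the length ratio from the limits of the 2 medians held 1 for RING1A (0.333, 0.0577 to 1.6) and RING1B (1.92, 0.571 to 9.25). The median length in control cells was 150 bp in the first 40 Mb and 125 bp in the rest for EED and for mouse uH2A, 200 and 150 bp for H3K27me3, 125 bp on either side for RING1A, and 125 and 150 bp for BMI1. Rabbit uH2A had 175 and 200 bp. RING1B peaks had a median of 100 bp in the first 40 Mb and 225 bp in the rest, and this ratio of 0.444 became 1.33 without the 2 bins that stand apart. Covered length in control cells was also larger in the first 40 Mb, with 361 kb of RING1A peaks there and 16.5 kb in the rest. Its control ratio per Mb was 20.8 for RING1A, 2.13 for RING1B, 14.6 for BMI1 and 3.60 for rabbit uH2A. These lay below the ratios by number of 26.3, 4.75, 22.9 and 4.77. For H3K27me3 it was 1.63, above 1.27 by number, and for mouse uH2A 43.9, above 30.9. For EED it was 10.98, near 11.2 by number.

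In control cells, peaks of both uH2A antibodies and of H3K27me3 coincided with those of another antibody more often in the first 40 Mb. A control peak was counted as shared when it overlapped a control peak of at least 1 of the 6 other antibodies by 1 bp or more. H3K27me3 shared 163 of 456 peaks (35.7%) in the first 40 Mb and 13 of 342 (3.80%) in the rest, against 16.1% over all chromosomes, a difference of 31.9 percentage points (26.96 to 36.7). Rabbit uH2A shared 79.4% and 38.2%, with 55.9% over all chromosomes, and mouse uH2A 76.9% and 40.0%, with 57.1% over all chromosomes. EED shared 77.4% in the first 40 Mb and 71.7% in the rest, near its 72% over all chromosomes, and RING1A 52.2% and 48.1%, near its 48.5%. BMI1 shared 72.8% and 89.1%, with 76.4% over all chromosomes. RING1B shared 68 of 85 peaks (80.0%) and 17 of 17 (100%), with 93.1% over all chromosomes. The interval of the difference held 0 for EED (-5.84 to 20.4 points) and RING1A (-6.83 to 14.8 points). It lay above 0 for H3K27me3 and both uH2A antibodies and below 0 for RING1B and BMI1. Without the 0 to 1 and 44 to 45 Mb bins it held 0 for BMI1 (-10.7, -21.0 to 8.70). It then also held 0 for RING1B (-23.0, -33.7 to 56.8), with 1 peak left in the rest. For RING1A the difference without these bins lay above 0 (14.7, 2.30 to 25.8).

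These shares depend on how many partner peaks a stretch holds, and a denser stretch offers more of them. With partners of the other library set only, RING1B and BMI1 turned to 44.7 and 24.8 percentage points higher in the first 40 Mb. For mouse uH2A the difference of 36.9 points was 3.74 (-13.0 to 16.3) with partners of the same set, and -2.50 (-9.28 to 5.69) with a split at 35 Mb. In knockdown cells H3K27me3 shared 17 of 20 peaks (85%) in the first 40 Mb and 9 of 9 in the rest, with 82.2% over all chromosomes. Rabbit uH2A knockdown peaks were shared in 30.1% and 4.30% of cases, with 12.3% over all chromosomes, a difference of 25.8 points (17.4 to 32.7). For the other antibodies with knockdown peaks on either side the interval of the difference held 0. Pair by pair, EED control peaks lay on RING1A in 51.4% of cases in the first 40 Mb and 10.9% in the rest, against 36.3% over all chromosomes. On mouse uH2A they lay in 42.1% and 10.9%, against 33.8%. On rabbit uH2A they lay in 46.4% and 69.6%, against 50.7% over all chromosomes, so that in the rest EED coincided mainly with that antibody. H3K27me3 control peaks lay on EED in 7.24% of cases in the first 40 Mb, against 1.92% over all chromosomes. In the rest 0 of 342 did, for which a floor of 3 counts is 0.877%. RING1A control peaks lay on BMI1 in 27.4% and 29.6% of cases, against 21.8% over all chromosomes.

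Control peaks of all antibodies were merged where they overlapped, which gave 3479 regions in the first 40 Mb and 560 in the rest. Regions with a single antibody made up 61.3% of the regions in the first 40 Mb, led by RING1A alone with 1058, and 86.6% in the rest, led by H3K27me3 alone with 329. H3K27me3 alone was 58.75% of all regions of the rest and 8.16% of those in the first 40 Mb. No share over all chromosomes is given for such regions, and a denser stretch offers more partners. The contrast therefore does not describe the other antibodies on their own. The first 40 Mb had 24 regions with 6 antibodies and 1 with 7, and the rest had none with more than 5. The region with 7 ran from 21977051 to 21978100 and kept EED and both uH2A antibodies in knockdown cells. In the rest the regions with 5 antibodies ran from 77105876 to 77106775 and from 77234576 to 77235600. The region from 44552251 to 44553550 held H3K27me3, RING1A, RING1B and BMI1 in both cell lines.

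The share of control peaks kept, meaning overlapped by a knockdown peak of the same antibody by at least 1 bp, differed in direction between antibodies. EED kept 33 of 541 (6.10%) in the first 40 Mb and 1 of 46 (2.17%) in the rest, against 5.79% over all chromosomes. H3K27me3 kept 10 of 456 (2.19%) and 4 of 342 (1.17%), against 3.81%. For both the interval of the difference held 0 (-5.40 to 6.87 points for EED, -1.03 to 2.96 for H3K27me3).

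RING1A kept 10 of 2242 control peaks (0.446%) in the first 40 Mb and 7 of 81 (8.64%) in the rest, against 4.07% over all chromosomes, a difference of -8.20 points (-16.3 to -3.79). All 7 in the rest lay in the 44 to 45 Mb bin, and without this bin and the first one RING1A kept 5 of 2148 (0.233%) and 0 of 64, for which a floor of 3 counts is 4.69%. RING1B kept 8 of 85 (9.41%) and 1 of 17 (5.88%), against 20.7%, and 0 of 74 and 0 of 1 without those bins. BMI1 kept 61 of 1109 (5.50%) and 13 of 46 (28.3%), against 21.1% (difference -22.8 points, -37.1 to -11.7). Without the 2 bins BMI1 kept 52 of 1065 (4.88%) and 3 of 24 (12.5%), a difference of -7.62 points whose interval held 0 (-26.2 to 0.669). The 3 PRC1 subunits therefore kept a smaller share in the first 40 Mb than over all chromosomes. So did H3K27me3 (2.19% against 3.81%) and rabbit uH2A (23.5% against 28.8%). Without the 2 bins the shares of the PRC1 subunits in the rest were also below those over all chromosomes, though on 64, 1 and 24 control peaks. Their intervals held the shares over all chromosomes, reaching 5.60% for RING1A and 97.5% for RING1B and running over 2.66% to 32.4% for BMI1.

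Rabbit uH2A kept 145 of 617 control peaks (23.5%) in the first 40 Mb and 62 of 123 (50.4%) in the rest, against 28.8% over all chromosomes (difference -26.9 points, -36.2 to -17.5). Leaving out the part beyond 72 Mb, it kept 23.5% and 15 of 42 (35.7%), a difference of -12.2 points whose interval held 0 (-27.7 to 0.985). Mouse uH2A kept 205 of 1139 (18%) and 0 of 35, for which a floor of 3 counts is 8.57%, against 10.7% over all chromosomes (difference 18 points, 7.88 to 20.3). With a split at 35 Mb this difference was 3.46 points, with an interval that held 0 (-3.88 to 9.004). The 2 antibodies to uH2A had differences of opposite sign over the whole chromosome, and each lost its distance from 0 under 1 of these alternatives. In the tallest of 4 height classes rabbit uH2A kept 63.2% in the first 40 Mb and 91.9% in the rest, and in the lowest class 9.89% and 16.7%.

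**Figure D5:**
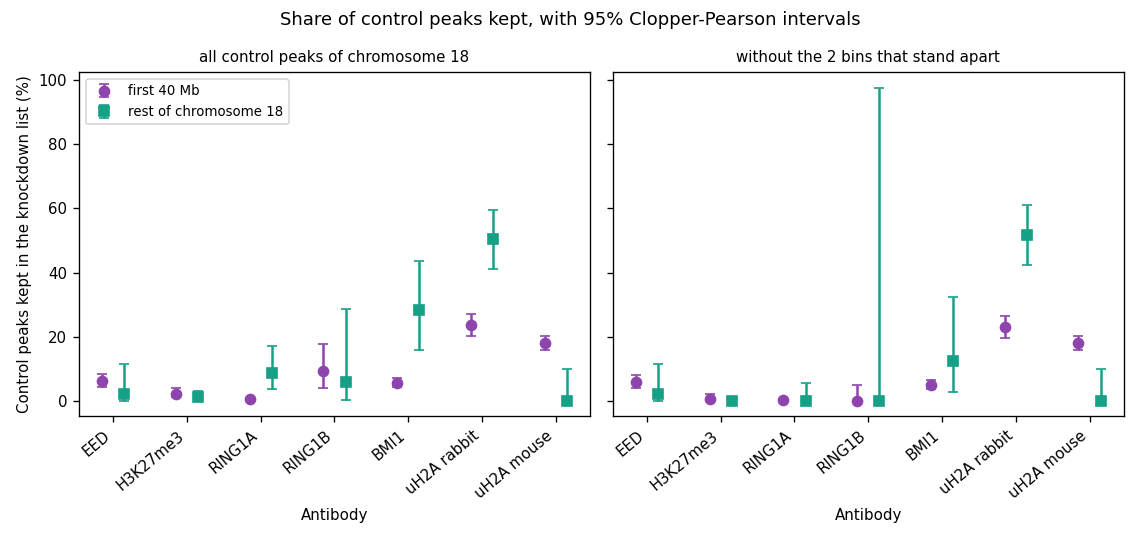
Share of control peaks kept in the knockdown list (percent) in the first 40 Mb (circles) and the rest of chromosome 18 (squares) for 7 antibodies, with 95% Clopper-Pearson intervals, over all control peaks (left) and without the 0 to 1 and 44 to 45 Mb bins (right). RING1A and BMI1 drop in the rest from left to right panel, to 0 of 64 and 3 of 24, and rabbit uH2A is at 51.7%. The long bar of RING1B on the right rests on 1 peak.

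Peak numbers in knockdown cells relative to control cells also differed in direction between antibodies. With all peaks counted they were lower in the first 40 Mb for the 3 PRC1 subunits and rabbit uH2A. They were higher there for EED, H3K27me3 and mouse uH2A. Not all of these differences went beyond counting error. RING1A had 0.0120 knockdown peaks per control peak in the first 40 Mb and 0.0988 in the rest, against 0.0727 over all chromosomes. BMI1 had 0.0848 and 0.391, against 0.301, and rabbit uH2A 0.355 and 0.756, against 0.418. EED had 0.118 and 0.0217, against 0.105, and mouse uH2A 0.333 and 0 (a floor of 3 counts gives 0.0857), against 0.211. H3K27me3 had 0.0439 and 0.0263, against 0.119, and RING1B 0.118 and 0.176, against 0.337. The ratio of the 2 ratios was below 1 with its interval for RING1A (0.122, 0.0519 to 0.321), BMI1 (0.217, 0.118 to 0.414) and rabbit uH2A (0.469, 0.341 to 0.649). Its interval held 1 for RING1B (0.667, 0.150 to 4.18), EED (5.44, 0.894 to 223) and H3K27me3 (1.67, 0.714 to 4.21). By covered length the RING1B ratio was 4.62. Without the 2 bins that stand apart RING1A and RING1B had no knockdown peak in the rest. For BMI1 the ratio was then 0.479 with an interval that held 1 (0.159 to 1.94). Read totals are not known for these libraries, and their part in the peak numbers was not tested.

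Copy number was not measured in these files, and no input or IgG library was analysed here, so a copy-number step was not tested. What the files hold is set beside its definition here. A step changes depth for every antibody of a line by 1 factor at 1 edge. The peak-density ratio ran over 1.27 to 30.9 between control libraries and over 2.11 to 60.8 between knockdown libraries with peaks in the rest. For mouse uH2A in knockdown cells it was 120 at a floor of 3 counts in the rest. Peak density is counted past a caller's threshold and is not proportional to depth, so these factors are not copy ratios. All 14 libraries were denser in the first 40 Mb, in both lines and both sets. In 9 of 14 lists the last peak before 40 Mb lay between 36 and 37 Mb, and peak numbers varied between bins on the dense side. Median heights differed by a factor of 0.774 to 1.10 in control cells, and control peaks at least 2 times the library median numbered 6 and 6 for RING1A and 7 and 6 for BMI1. Those of the rest all lay in the 44 to 45 Mb bin, and without the 2 bins they numbered 4 and 0 for RING1A and 2 and 0 for BMI1. H3K27me3 had near equal density on either side, with its own blocks from 52 to 62 Mb. The part of copy number, of base composition and of mappable sequence in these values was not tested.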

How the data were processed

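Per the submitters' processing notes, reads were aligned with Bowtie to hg19, and no version or settings are stated. The deposited peak lists carry the name of the HPeak caller, with 1 list per library and no header. Each row has a position, a length, an offset, a score and a height. The height is the authors' signal of a peak, read from its values, and is not normalised between libraries. The negative score was not used. Read totals are unknown, so precision is limited by peak numbers, 1372 to 56011 per library.

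A peak belonged to a side by its start. Overlap meant at least 1 bp. Density used 40 Mb and 38.01 Mb. The density of the other autosomes used their full length to the largest peak end, with empty stretches kept in, which lowers that density. For the ratios at 40 Mb on other autosomes, stretches of at least 5 Mb without a peak were left out. There 15 Mb beyond 40 Mb were required. Density ratios have exact conditional intervals, shares Clopper-Pearson intervals and differences Newcombe intervals, at the 95% level. They treat peaks as independent and cover counting error only. Ranges of height and length ratios divide a limit of the median on either side by the opposite limit on the other. These ranges are not 95% intervals of a ratio, and a side with few peaks gave its lowest and highest value. No p-value was computed, with 1 library per group. Overlap counting was tested on simulated lists. Named regions were the last and next peaks at 40 Mb, the densest bins, the tallest lost, kept and new peaks, and the regions with most antibodies. Members, lists and alternatives were chosen with earlier results of these data known. The places at 0 to 1, 44 to 45, 52 to 62 and beyond 72 Mb, and the added alternatives, were chosen after their values were seen. Genes and sequences at these positions are not analysed here. Computations used Python 3.11.15, numpy 2.4.6, pandas 2.3.3, scipy 1.17.1 and matplotlib 3.10.9.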

Additional observations from a re-analysis of the deposited data

Results flagged for a closer look

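The first 40 Mb lay on opposite sides of the other autosomes in the 2 cell lines for 2 antibodies. RING1A had 0.504 times the density of the other autosomes there in knockdown cells and 2.95 times in control cells. RING1B had 0.513 times in knockdown cells and 1.28 times in control cells. The difference between the cell lines was not tested, since each value comes from 1 library. Of the knockdown peaks in the first 40 Mb, 8 of 27 for RING1A and 8 of 10 for RING1B lay in the 0 to 1 Mb bin.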

How the results depend on the processing

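No paired analysis was possible because each antibody has 1 library in each cell line. Summary values were set against the medians of the lower and upper limits of their libraries or antibodies. These limits are not a counting interval of the summary. Over all alternatives, 68 summary values stayed within those limits, or within 1.5 times for a count, and 14 moved further. Among values of single libraries or antibodies, 323 stayed within the interval or range of the value as given, 104 moved and 14 reversed. Only a value whose interval left out equality of the sides could count as reversed. Other changes of side counted as stayed or moved. Among them was the RING1B knockdown density ratio, from 3.17 to 0.632 without the outermost 2 Mb. Another was the EED difference in kept share, from 3.93 to -31.0 points with equal numbers of peaks. The first 40 Mb was denser in 10 to 14 of 14 libraries under every alternative run. The median control density ratio of 11.2 became 5.45 with a split at 35 Mb and 27.05 at 45 Mb. It was 17.2 without the outermost 2 Mb, 29.6 without the 0 to 1 and 44 to 45 Mb bins, 39.3 without the 3 densest bins of either side, and 1.58 with peaks at least 2 times the library median height. The values of 27.05 and 29.6 are those of mouse uH2A. RING1B, with at most 1 control peak left in the rest, passed above the median in both cases. RING1A in control cells turned to 0.9503 with those tall peaks, and H3K27me3 to 0.878 after merging within 1000 bp and to 0.922 with a split at 35 Mb. The median height ratio became 2.59 in knockdown and 0.788 in control cells at the 90th percentile, and 0.845 in control cells over peaks present in both lines. The mean length gave 0.791 in control cells. EED in knockdown cells turned to a height ratio of 1.03 with a split at 35 Mb. RING1A in control cells turned to 0.788 at the 90th percentile and 0.427 over peaks present in both lines. RING1B in control cells turned to 1.16 in height and 1.33 in length without the 2 bins, and to 1.86 in height over peaks present in both lines. The median difference in kept share became 3.52 points over peaks that reach the control median height and -32.5 with equal numbers of peaks. It was -11.4, the value of RING1A, in place of 1.02 when a knockdown peak within 1000 bp counted. RING1A turned to 0.233 points without the 2 bins and to 0.751 with a split at 45 Mb. The median difference in shared peaks became 24.7 points with a split at 45 Mb and 39.0 with partners of the other set, where RING1B turned to 44.7 and BMI1 to 24.8. It was -2.50 with a split at 35 Mb and -1.89 with partners of the same set, in place of 5.71. Mouse uH2A turned to -2.50 points with a split at 35 Mb. The cause of these changes was not tested. Where a side held no peak, as for mouse uH2A in knockdown cells, a ratio could not be given. The planned removal of the longest empty stretch took out a stretch of the rest, from 62313251 to 65514000, so the empty stretch before 40 Mb was added.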
